A study of Sus scrofa with 2 samples.

Results

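Forkhead box O (FOXO) transcription factors, pyruvate dehydrogenase kinases (PDKs), the peroxisome proliferator-activated receptors PPARA and PPARD and the mitochondrial carrier UCP3 were described in muscle RNA of abnormal and normal cloned piglets. The entries were chosen by symbol or by the name of their best protein match, a rule that was written with the values of both libraries known. It took 10 of the 12535 entries with a read in either library: PDK4, PDK3, a PDK1-like entry, FOXO1, FOXO3, FOXO4, PPARA, UCP3 and 2 entries of PPARD. PDK2 and PPARGC1A matched no entry by this rule and were not analysed here.

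RNA came from the biceps femoris muscle of piglets cloned by somatic cell nuclear transfer, born by caesarean section near term and sampled on Day 1 after birth. The abnormal cloned group was 1 library from the pooled RNA of 3 piglets with an enlarged tongue, a disability in standing and walking, and an umbilical defect. The normal cloned group was 1 library from a pool of 4 piglets by the study's methods, against 3 in the sample labels. The 3 abnormal and 2 of the normal piglets came from embryonic fibroblasts of 1 male pig, and the other 2 normal piglets from ear fibroblasts of another, so part of any difference cannot be told apart from the donor. With 1 library per group there was no replicate check, no spread between piglets could be measured, and each difference below is one between 2 libraries.

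PDKs phosphorylate the pyruvate dehydrogenase complex and switch it off. Pyruvate is then not turned into acetyl-CoA in the mitochondria, which spares glucose when fat is burned. PDK4 is the form known to be induced in skeletal muscle by fasting, under the control of FOXO factors, PPARs and glucocorticoids. FOXO factors are held in the cytoplasm when insulin or IGF signalling activates AKT, and in its absence they turn on genes of protein breakdown and autophagy. PPARA and PPARD are receptors for fatty acids that turn on fat oxidation genes, and UCP3 is a carrier of the inner mitochondrial membrane known to be induced by fasting.

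The abnormal library held 6.38 M and the normal library 6.52 M uniquely mapped reads, of which 36.0% and 46.1% were of mitochondrial transcripts. The level of each entry is given as RPKM, its reads per kb of transcript and per M reads of the library. A difference is given as the log2 of the abnormal over the normal RPKM, called the log2 ratio below. Each interval was computed at the 95% level by Wilson's method from the split of an entry's reads between the libraries. Intervals cover counting error only, since each group is 1 library. They take each read as independent, and reads copied by PCR are not, so they may be too narrow even for counting error. Of 9235 entries with at least 10 reads over both libraries, 25.9% were 2-fold or more higher and 5.33% were 2-fold or more lower in the abnormal library. Among the 7493 entries with at least 10 reads in each library the median log2 ratio was 0.36. After that shift was taken from each ratio, 15.6% were 2-fold or more higher and 11.1% lower, so that the share of these differences that pointed upwards went from 83.0% to 58.5%. The Audic-Claverie test of the 2 libraries, with a 2-fold difference and a false discovery rate of up to 0.001 required, called 12.0% of the 12535 entries up-regulated and 1.45% down-regulated, 1510 against 182. With the median shift taken out, it called 812 against 498.

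The tissue label was checked against muscle genes. All 4 skeletal muscle markers found had reads in both libraries, and their log2 ratios lay between 0.18 and 0.50. ACTA1, the actin of the skeletal thin filament, stood at 42258 RPKM in the abnormal library against 37387 RPKM in the normal one. Fibre-type markers differed: 4 of 5 slow-fibre entries were 2-fold or more lower in the abnormal library, from 16163 to 1923 summed RPKM over the list, while 0 of 6 fast-fibre entries passed 2-fold in either direction. Of other cell types, of 4 fat cell entries LEP, PLIN1 and CIDEC had at most 2 reads in a library and CFD, the complement factor adipsin, had 339 and 341, the 2 heart entries found had 4 and 7 reads in all, and the liver gene ALB had 12 abnormal and 271 normal reads, with 3 of 4 liver entries 2-fold or more lower. The endothelium (4 entries), macrophage (4) and red blood cell (2) markers had 0 entries past 2-fold in either direction. Whether muscle with fewer slow fibres contributes to the values below was not tested. In bulk muscle, fewer cells of a type and less RNA per cell cannot be told apart.

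Of the 10 entries, 9 had at least 10 reads over both libraries. Among these 9, 5 were 2-fold or more higher in the abnormal library (PDK4, FOXO3, PPARA, UCP3 and 1 PPARD entry) and 0 were 2-fold or more lower, beside 25.9% and 5.33% of all entries with as many reads. The median log2 ratio of the 9 was 1.23, beside 0.39 over those 9235 entries. Since the entries were chosen with these values in view, the counts describe them and are no test. By the Audic-Claverie threshold, 4 of the 10 were marked up-regulated (PDK4, FOXO3, PPARA and UCP3) and 0 down-regulated. For these entries the marks are likewise only a description, because the entries were picked with their values known. Each mark also rests on 1 library per group and says nothing of the spread between piglets. With the median shift taken out, 4 entries stayed 2-fold or more higher, beside 15.6% of all entries, and PPARD was at 0.87 on the log2 scale.

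**Figure D1:**
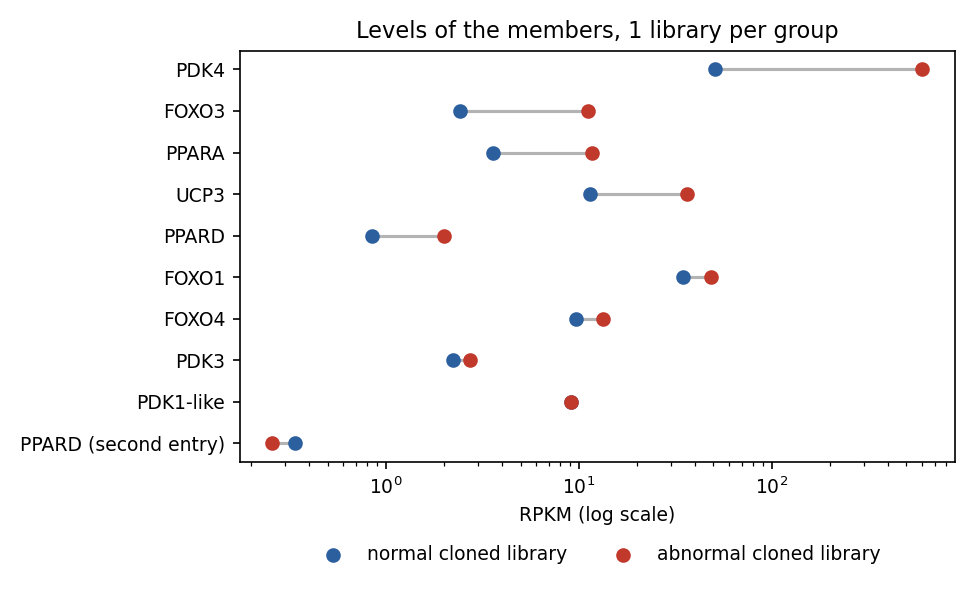
RPKM of each entry (log scale) in the abnormal and the normal cloned library, 1 point per library, ordered by log2 ratio from PDK4 at the top. PDK4 has the highest level in both libraries, 604 RPKM in the abnormal and 51.0 RPKM in the normal, while the points of the PDK1-like entry lie on each other at 9.15 and 9.11 RPKM.

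PDK4 had the largest log2 ratio of the 10 entries, and the other PDKs found were not past 2-fold. PDK4 (gene 100286778, Sscrofa9 chromosome 9, 70465829 to 70477355, transcript of 1894 bases) had 7294 abnormal and 629 normal reads. On the RPKM scale it stood at 604 and 51.0, a log2 ratio of 3.57 with an interval of 3.45 to 3.68. By RPKM it was in the top 0.996% of the entries listed for the abnormal library and the top 7.17% of those for the normal one, and its log2 ratio ranked 57th of the 9235 entries.

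The PDK1-like entry (gene 100525131, chromosome 15, 73568651 to 73576378), whose protein match is a form of the PDK known for its induction by low oxygen, had 59 abnormal and 60 normal reads. Its RPKM was 9.15 and 9.11, and its log2 ratio of 0.01 had an interval of -0.51 to 0.52. PDK3 (gene 100153858, chromosome X, 19401655 to 19471675), a PDK known mainly from testis, kidney and brain, had 36 abnormal and 30 normal reads, or 2.73 and 2.22 RPKM. Its log2 ratio was 0.29 with an interval of -0.40 to 0.99. Both intervals hold 0 and the median of all entries and leave room for a difference of up to 1.98-fold in PDK3, so that a smaller one was not detectable at this depth.

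The makeup of the PDKs can be compared without the library totals, since each share is taken within a library. Of the summed RPKM of the 3 PDK entries, PDK4 made up 98.1% in the abnormal library against 81.8% in the normal one. The PDK1-like entry made up 1.49% and 14.6%, and PDK3 0.443% and 3.57%. Counted as shares of reads, PDK4 held 98.7% (Wilson interval 98.4% to 98.9%) and 87.5% (84.9% to 89.7%). The summed RPKM of the 3 was 616 in the abnormal library against 62.3 in the normal one, whereas without PDK4 it was 11.9 and 11.3. Per length, PDK4 was 66.0 times as abundant as the PDK1-like entry in the abnormal and 5.60 times in the normal library, and 222 and 22.9 times as abundant as PDK3. The log2 ratio of PDK4 exceeded that of the PDK1-like entry by 3.56 (counting interval 3.03 to 4.09) and that of PDK3 by 3.27 (2.56 to 3.98). PDK2, the other main PDK of skeletal muscle, is not in these shares.

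**Figure D2:**
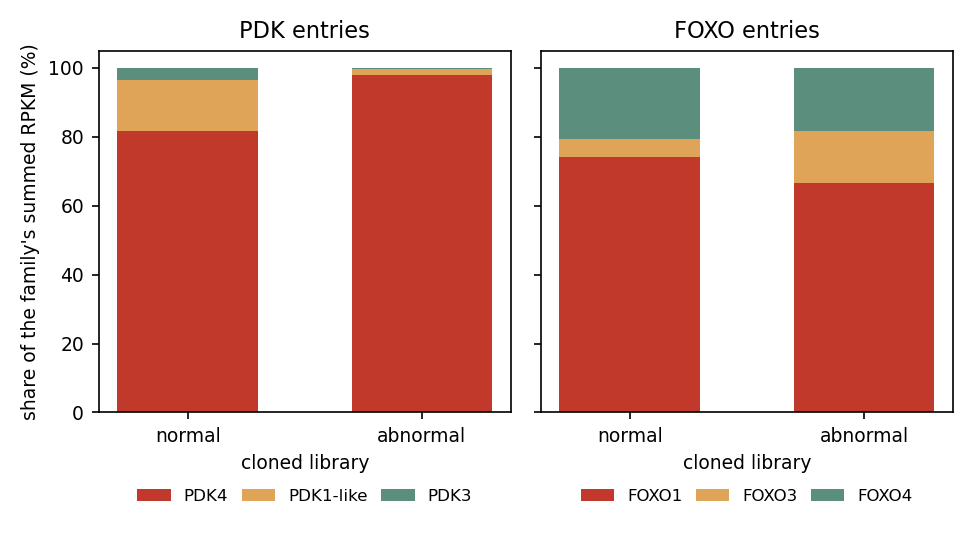
Share of each family's summed RPKM (%) held by its entries in the normal and the abnormal cloned library, 1 bar per library, for the 3 PDK entries (left) and the 3 FOXO entries (right). PDK4 goes from 81.8% in the normal to 98.1% in the abnormal library, and FOXO3 from 5.20% to 15.3%.

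The target of the PDKs, the pyruvate dehydrogenase complex, was read through a list of its subunits, its phosphatases and the genes that bring pyruvate to it or carry it elsewhere. Of 17 symbols 9 were found, as 10 entries with at least 10 reads each, and 7 of the 10 were 2-fold or more higher in the abnormal library, beside 25.9% of all entries, and 0 lower. After the median shift was taken out, 4 of the 10 were 2-fold or more higher, beside 15.6% of all entries. The subunits differed less than PDK4: DLD, the E3 subunit, stood at 130 RPKM in the abnormal library against 88.3 RPKM in the normal one (log2 ratio 0.56), DLAT, the E2 subunit, at 59.7 and 37.7 RPKM (0.66), and PDHX, which binds E3 to the core, at 31.9 and 14.9 RPKM (1.10). A further entry whose protein match is DLAT, singled out after its values were seen, had 108 abnormal and 41 normal reads (log2 ratio 1.43). No entry matched the symbols of the E1 subunits, which carry the sites that PDKs phosphorylate.

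The phosphatase that undoes the work of the PDKs also had entries past 2-fold. PDP1, its catalytic subunit, had 103 abnormal and 51 normal reads (log2 ratio 1.05), and PDPR, its regulatory subunit, had 94 and 35 reads in 1 entry (1.46) and 38 and 9 in another (2.11). At 10.01 and 4.85 RPKM, PDP1 remained far below PDK4 in the abnormal library. Among genes of pyruvate and lactate, SLC16A1, a lactate and pyruvate transporter of the cell membrane, stood at 52.8 and 12.5 RPKM (log2 ratio 2.08). LDHA, the muscle form of lactate dehydrogenase, stood at 531 and 255 RPKM (1.06), read over 18.8% and 16.1% of its length. PC, pyruvate carboxylase, rested on 10 and 3 reads (1.77). BRP44, a subunit of the mitochondrial pyruvate carrier, had nearly equal levels of 227 and 241 RPKM (-0.09, interval -0.19 to 0.01).

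FOXO3 differed more between the libraries than FOXO1 and FOXO4, although FOXO1 was the most abundant of the 3 in both. FOXO1 (ENSSSCG00000009370, chromosome 11, 15079672 to 15081009, a model of 1338 bases without an intron) had 416 abnormal and 302 normal reads, or 48.8 and 34.6 RPKM. Its log2 ratio was 0.49 with an interval of 0.28 to 0.71, which holds the median of all entries. FOXO4 (ENSSSCG00000012399, chromosome X, 56862227 to 56867783), a FOXO factor also known in muscle, had 131 and 97 reads, or 13.4 and 9.69 RPKM, and a log2 ratio of 0.46 (0.09 to 0.84). With the median shift taken out these were 0.13 for FOXO1 and 0.10 for FOXO4.

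FOXO3 (gene 733621, chromosome 1, 78223324 to 78332072, transcript of 2019 bases), the factor best known for turning on muscle wasting and autophagy genes, had 144 abnormal and 32 normal reads. It stood at 11.2 and 2.43 RPKM, and its log2 ratio was 2.20 with an interval of 1.65 to 2.75. Its log2 ratio exceeded that of FOXO1 by 1.71 (counting interval 1.12 to 2.30) and that of FOXO4 by 1.74 (1.07 to 2.41), whereas FOXO1 and FOXO4 differed by 0.03 (-0.41 to 0.46). These differences do not depend on the library totals. FOXO1 was 14.2 times as abundant as FOXO3 per length in the normal and 4.36 times in the abnormal library. Of the summed RPKM of the 3 entries, FOXO3 made up 15.3% in the abnormal library against 5.20% in the normal one, FOXO1 66.5% and 74.1%, and FOXO4 18.2% and 20.7%.

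Further FOXO entries lay outside the wording of the rule and were singled out after their values were seen. ENSSSCG00000004387, matched to a FOXO3 protein and assigned to the same Ensembl gene as FOXO3, spans 78331926 to 78349962 of chromosome 1 and shares 147 bases of that span with the FOXO3 entry. It had 123 abnormal and 13 normal reads, a log2 ratio of 3.27 (2.46 to 4.09), which was 1.07 above that of the FOXO3 entry with a counting interval of 0.08 to 2.06. ENSSSCG00000009371, matched to a FOXO1-like protein, lies 126809 bases beyond the FOXO1 entry and is annotated on the other strand. It had 30 and 11 reads, a log2 ratio of 1.48 (0.50 to 2.46), 0.99 above the FOXO1 entry (counting interval -0.03 to 2.0). Both FOXO3 entries were past 2-fold, whereas of the FOXO1 entries the one past 2-fold rests on 41 reads.

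**Figure D3:**
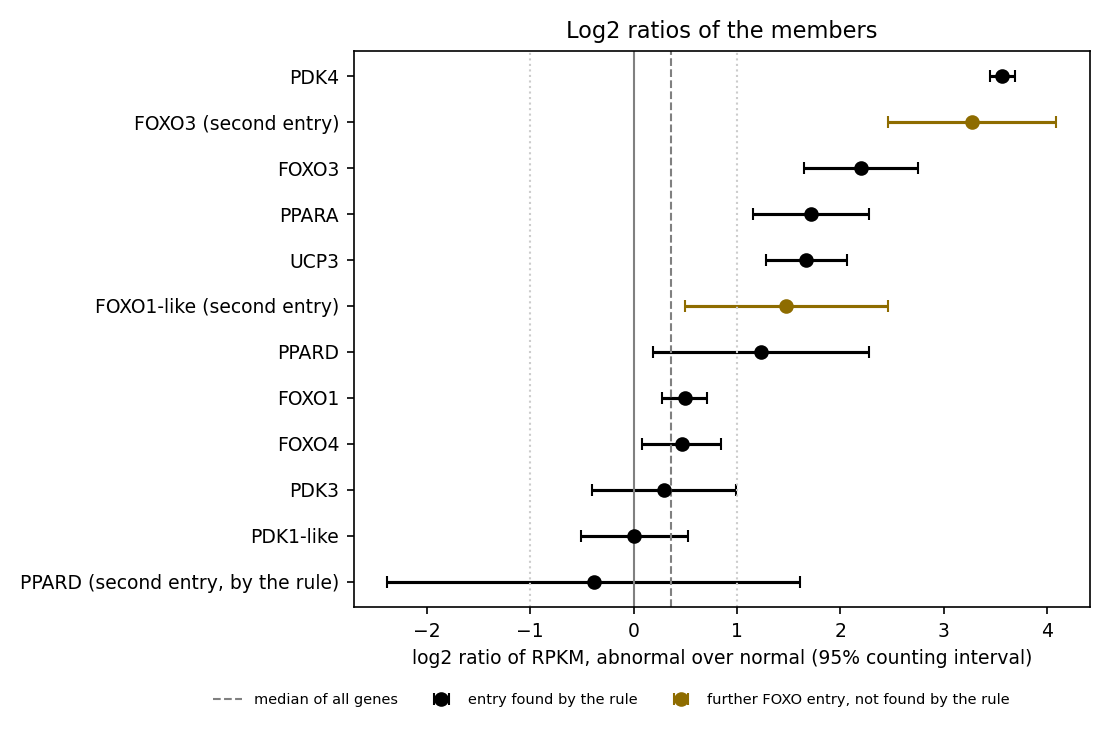
Log2 ratio of each entry, with its 95% counting interval as a bar. Black points are the 10 entries of the rule and brown points the 2 further FOXO entries, the solid line marks equal levels, the dashed line the median log2 ratio of 0.36 and the dotted lines a 2-fold difference. PDK4, FOXO3, PPARA and UCP3 lie past the 2-fold line with their whole interval, while the PPARD interval starts at 0.18.

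Genes that FOXO factors are known to turn on were mostly higher in the abnormal library, as were 68.4% of all entries with at least 10 reads. Of 45 symbols 33 were found as 34 entries, of which 33 had at least 10 reads. Of these, 18 were 2-fold or more higher and 1 was 2-fold or more lower (SESN3, 5 and 13 reads), beside 25.9% and 5.33% of all entries. The median log2 ratio of the list was 1.15, beside 0.39 over all entries. With the median shift taken out 12 were 2-fold or more higher and 1 lower, beside 15.6% and 11.1% of all entries. The highest were FBXO32 (atrogin-1, the F-box protein of muscle wasting) with 713 and 50 reads, FBXO30 (an F-box protein of muscle wasting) with 280 and 30, and LPIN1 (a phosphatidate phosphatase and coactivator) with 276 and 45, at log2 ratios of 3.86, 3.25 and 2.65. At the other end stood PIK3IP1, an inhibitor of PI3-kinase, with 10 and 15 reads (-0.55), RRAGD, a GTPase that signals amino acids to mTOR, with 169 and 243 (-0.49) and CAT, catalase, with 1119 and 1414 (-0.31).

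By role, a grouping made after the values were seen, all 4 F-box proteins of the list were 2-fold or more higher, between 1.15 and 3.86 on the log2 scale. Of 10 autophagy entries 6 were, beside 25.9% of all entries, and the 10 ranged from 0.16 to 2.13. Their highest was ULK1, the kinase that starts autophagy, with 434 abnormal and 101 normal reads. SQSTM1, a receptor for autophagy cargo, stood at 262 and 74.6 RPKM (log2 ratio 1.81). The 2 antioxidant enzymes SOD2 and CAT, at 0.54 and -0.31, were not past 2-fold. The FOXO targets thus did not differ evenly, and all 4 F-box proteins had larger log2 ratios than both antioxidant enzymes.

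Genes that act on FOXO factors were also mostly higher. Of 29 entries with at least 10 reads, 15 were 2-fold or more higher and 0 lower, beside 25.9% and 5.33% of all entries. The median log2 ratio was 1.10, and 10 were 2-fold or more higher with the median shift taken out, beside 15.6% of all entries. The highest were IGF1R, the receptor of IGF1, with 65 abnormal and 9 normal reads (2.88), an entry of INSR, the insulin receptor, with 52 and 10 (2.41), and YWHAG, a 14-3-3 protein of the kind that keeps FOXO factors in the cytoplasm, with 514 and 123 (2.09). A second INSR entry had 15 and 6 reads (1.35). The lowest were CDK2, a cell-cycle kinase, with 35 and 37 reads (-0.05), YWHAB, another 14-3-3 protein, with 487 and 496 (0.00), and PIK3R2, a regulatory subunit of PI3-kinase, with 156 and 139 (0.20).

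Within that list the 7 entries of AKT and its activators, not all of them kinases, had a median log2 ratio of 0.93. Of these, 2 were 2-fold or more higher, RICTOR (2.09) and PIK3R1 (1.34), neither of them an AKT gene, beside 25.9% of all entries. AKT2, the AKT form of insulin action in muscle, was at 75.5 and 39.0 RPKM (0.95). Of 4 phosphatases that oppose AKT signalling, 3 were 2-fold or more higher, beside 25.9% of all entries, and the 4 ranged from 0.70 to 1.79 on the log2 scale. With the median shift taken out 2 of the 4 were, beside 15.6% of all entries. Of 5 14-3-3 entries 1 was past 2-fold before that shift, so that the AKT and 14-3-3 groups were near the share of all entries. These groups by role were drawn after the values were seen. Single genes that hold FOXO factors back and single genes that release them were among the higher ones. The phosphorylation that sets FOXO activity is not measured by RNA.

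PPARA and UCP3 were higher in the abnormal library by nearly the same factor, while the value of PPARD rested on a short stretch of its transcript. PPARA (gene 397239, chromosome 5, 142391 to 161045) had 106 abnormal and 33 normal reads, or 11.8 and 3.58 RPKM. Its log2 ratio was 1.71 with an interval of 1.15 to 2.27. UCP3 (gene 397116, chromosome 9, 8061601 to 8068728, a model of 924 bases) had 215 and 69 reads, or 36.5 and 11.5 RPKM, and a log2 ratio of 1.67 (1.28 to 2.06). The log2 ratios of UCP3 and PPARA differed by -0.04, with a counting interval of -0.73 to 0.64 that would also hold a difference of some size in either direction.

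UCP2, a carrier related to UCP3 whose gene lies 13530 bases away on chromosome 9, had the lower level in the abnormal library. It had 185 abnormal and 296 normal reads, or 17.4 and 27.3 RPKM, a log2 ratio of -0.65 (-0.91 to -0.38). UCP3 was thus 2.09 times as abundant as UCP2 per length in the abnormal library, whereas UCP2 was 2.38 times as abundant as UCP3 in the normal one. The log2 ratio of UCP3 exceeded that of UCP2 by 2.32 (counting interval 1.85 to 2.79), a difference free of the library totals.

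The PPARD entry with a symbol (gene 397297, chromosome 7, 35734879 to 35811242) had 23 abnormal and 10 normal reads, or 2.01 and 0.854 RPKM, a log2 ratio of 1.23 with an interval of 0.18 to 2.28. The other PPARD entry (ENSSSCG00000001539, 35734820 to 35881353), whose span holds all 76364 bases of the first, had 3 and 4 reads, under the minimum of 10. Reads of the first entry covered 4.23% of its 1798 bases in the abnormal library against 3.89% in the normal one, and those of the second 2.69% and 3.95% of 1821 bases. The tables count only uniquely mapped reads, and how many reads both entries share was not tested. The level of PPARD is therefore uncertain in both libraries, and the difference describes about 76 bases of the transcript.

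The covered length of the other members ranged from 37.3% to 99.8%. PDK4 was covered over 99.8% of its length in the abnormal library against 95.1% in the normal one, FOXO1 over 99.5% and 99.4%, UCP3 over 98.2% and 97.5%, and FOXO4 over 94.1% and 92.9%. FOXO3 went from 49.4% in the normal to 82.8% in the abnormal library and PPARA from 69.3% to 91.5%, along with their reads. PDK3 was covered over 51.9% and 37.3%. The PDK1-like entry was covered over 78.9% of its 1011 bases in the abnormal library against 58.3% in the normal one at 59 and 60 reads.

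**Figure D4:**
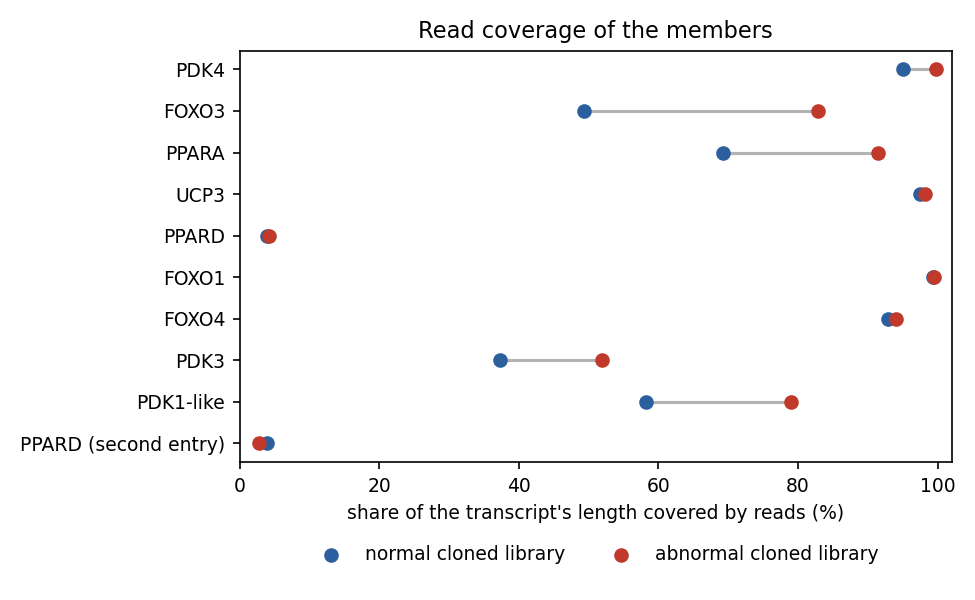
Share of each transcript's length covered by reads (%) in the abnormal and the normal cloned library, 1 point per library, in the order of the log2 ratios. The 2 PPARD entries lie between 2.69% and 4.23%, whereas FOXO1, UCP3, FOXO4 and PDK4 lie above 92% in both libraries.

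Known PPAR targets did not share the direction of PPARA, PDK4 and UCP3. Of 41 symbols 28 were found, and of the 24 entries with at least 10 reads 0 were 2-fold or more higher and 2 were 2-fold or more lower (ACAA2 and FABP3), beside 25.9% and 5.33% of all entries. The median log2 ratio was -0.06, beside 0.39 over all entries. With the median shift taken out, 0 were 2-fold or more higher and 5 lower, beside 15.6% and 11.1% of all entries. ACAA2, the thiolase of mitochondrial fat oxidation, had 692 abnormal and 2009 normal reads (-1.51), FABP3, the fatty acid binding protein of muscle, had 1371 and 2855 (-1.03), and ANGPTL4, an inhibitor of lipoprotein lipase, 341 and 577 (-0.73). Among the highest were CPT1A, which brings fatty acids into mitochondria, with 56 and 34 reads (0.75), and CD36, a fatty acid transporter, with 2659 and 1663 (0.71).

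Grouped by role after the values were seen, the 13 entries of mitochondrial beta-oxidation ranged from -1.51 to 0.75 with a median log2 ratio of -0.07, and 11 of the 13 lay below the median of all entries. Of the 7 entries of fatty acid uptake, binding and storage, 6 lay below it. PDK4 and UCP3, which are themselves known PPAR targets, were left out of these counts because they are members. The slow-fibre markers MYH7, TNNC1, MYL3 and MLC2V, genes of the fibre type richest in fat oxidation, stood at log2 ratios of -3.52, -3.18, -3.04 and -3.02, and the share of mitochondrial reads was lower in the abnormal library. Their part in the PPAR list was not tested.

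PGC-1 coactivators join FOXO factors and PPARs to mitochondrial genes. Of 30 entries of PGC-1 relatives and partners with at least 10 reads, 10 were 2-fold or more higher and 0 lower, beside 25.9% and 5.33% of all entries, and the median log2 ratio was 0.60. PPARGC1B, the relative of PPARGC1A, had 60 abnormal and 50 normal reads (0.29), and PPRC1, a further relative singled out after its value was seen, 424 and 206 (1.07). Among the highest were LPIN1 (2.65, as above) and MEF2A, a muscle transcription factor, with 17 and 3 reads (2.53). The lowest were NCOA3, a nuclear receptor coactivator, with 1739 and 2752 reads (-0.63), RXRG, a partner of PPARs, with 110 and 174 (-0.63), and an entry of MEF2C with 70 and 109 (-0.61), while another MEF2C entry had 538 and 206 (1.42). The difference of MEF2C therefore turned on the entry that was read.

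Of the pathways around the switch, energy sensing by AMPK, the kinase that answers low ATP, had the largest share of entries past 2-fold among the 7 lists. Of 18 entries with at least 10 reads 14 were 2-fold or more higher and 0 lower, beside 25.9% and 5.33% of all entries, with a median log2 ratio of 1.56. With the median shift taken out 10 of the 18 were higher, beside 15.6% of all entries. HK2, the insulin-responsive hexokinase of muscle, had 411 abnormal and 25 normal reads (4.07), PRKAG2, a regulatory AMPK subunit, 830 and 87 (3.28), and PRKAB2, the beta subunit of muscle AMPK, 177 and 28 (2.69). The lowest were STK11 (LKB1, a kinase that activates AMPK) with 490 and 423 reads (0.24), PRKAG1, another regulatory subunit, with 167 and 123 (0.47), and SLC2A4, the insulin-regulated glucose transporter, with 1059 and 724 (0.58). Grouped by role after the values were seen, 6 of the 7 AMPK subunit entries were 2-fold or more higher, beside 25.9% of all entries. With the median shift taken out 4 of the 7 were, beside 15.6% of all entries.

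Glucocorticoids, which induce PDK4 and the F-box genes of wasting, were read through 12 entries of known response genes with at least 10 reads. Of these, 5 were 2-fold or more higher and 0 lower, beside 25.9% and 5.33% of all entries, with a median log2 ratio of 0.79. With the median shift taken out 3 of the 12 were higher and 1 lower, beside 15.6% and 11.1% of all entries, which is near that background. FKBP5, a chaperone partner of the glucocorticoid receptor and one of its classic targets, had 815 abnormal and 136 normal reads (2.61), GLUL, glutamine synthetase, 3520 and 750 (2.26), and NR3C1, the receptor, 120 and 31 (1.98). ANGPTL4 (-0.73, also a PPAR target), MAOA, a monoamine oxidase, with 32 and 44 reads (-0.43) and PER1, a clock gene, with 1087 and 1022 (0.12) were the lowest. No hormone or nutrient was measured in these samples. Across the 7 lists, 8 of 164 entries belong to more than 1 list.

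**Figure D5:**
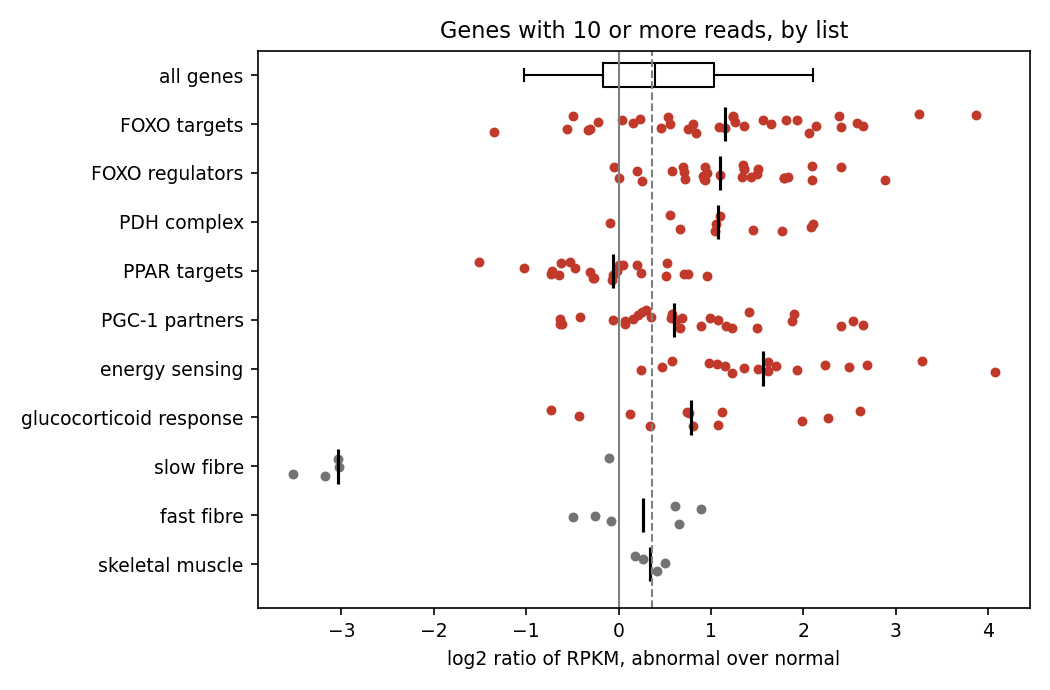
Log2 ratios (abnormal over normal library) of entries with 10 or more reads over both libraries, 1 point per entry, by list, with a black tick at each list's median. The box shows the quartiles of all such entries with reads in both libraries and its whiskers the 5th and 95th percentiles, the dashed line the median log2 ratio of 0.36, red points the pathway lists and grey points the fibre and muscle markers. The median is 1.56 for energy sensing, 1.15 for FOXO targets and -0.06 for PPAR targets, and the 4 low slow-fibre points lie at or below -3.02.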

How the data were processed

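The authors removed low-quality reads and adaptors and mapped the rest to Sscrofa9 transcripts with SOAPaligner/soap2, with at most 2 mismatches. The deposited tables, made by the authors, give the count of uniquely mapped reads without normalization, the RPKM, and the percent of its length covered for each transcript. No strand information is stated, so overlapping genes on opposite strands cannot be told apart. An entry absent from a table was taken as 0 reads. At a depth of 6.38 M and 6.52 M reads, 3 reads were 0.470 and 0.460 reads per M reads.

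Symbols came from the files for 3885 entries and from RefSeq and Ensembl name tables for 5686. The members, lists and comparisons were chosen with earlier results of these data known, so all differences of members are descriptions, with no test. Named were all members, the 3 highest and 3 lowest log2 ratios of each pathway list among entries with at least 20 reads, the pyruvate dehydrogenase list, and the 5 genes with at least 500 reads nearest to PDK4. Some genes that the rule takes are not reported here. Genes named beyond that rule were chosen after their values were seen. Intervals for the difference of 2 log2 ratios used the normal approximation to the log of the counts. The two-sided Audic-Claverie test (Benjamini-Hochberg over 12535 entries) served as background and was tested on simulated data. Alternatives were median centring, TMM (edgeR 4.0.16), totals without mitochondrial transcripts, 1 added to each RPKM, no minimum or 50 reads in place of 10, Fisher's exact test, and edgeR's exact test with an assumed variation of 0.4. Python 3.11.15 and scipy 1.17.1 were used. Promoter and protein sequences were not analysed here.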

Additional observations from a re-analysis of the deposited data

How the results depend on the processing

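No alternative reversed the direction of a member past 2-fold, but PPARD fell under 2-fold and left 4 members past it under each rescaling. Its log2 ratio was 0.87 after median centring, 0.84 with TMM, 0.99 without mitochondrial totals and 0.70 with 1 added to each RPKM. The log2 ratio of PDK4 was 3.21 after median centring, 3.17 with TMM and 3.32 without mitochondrial totals, and that of UCP3 was 1.28 with TMM, because these scalings take 0.36, 0.39 and 0.25 from each ratio. Of the pyruvate dehydrogenase list, 4 entries were 2-fold or more higher under each of these scalings, and of the glucocorticoid list 3. The lower glucocorticoid entries became 1 after median centring or TMM, the lower PPAR targets 5 and 6, and the lower PGC-1 partners 3 with TMM. With 1 added to each RPKM, 6 PGC-1 partners were higher and 0 FOXO targets lower, as were 0 with at least 50 reads. With no minimum of reads, 3 PPAR targets were higher, and 1 FOXO regulator and 2 energy sensing entries lower, each on fewer than 10 reads. By share of reads PDK4 made up 98.7% and 87.5% of the PDKs. Over the whole table, median centring gave 812 up-regulated and 498 down-regulated calls, and the exact test of edgeR, given a variation of 0.4, gave 2 and 1, with 0 members among them. Of 140 recomputed values, 109 stayed within their counting interval or within 1.5 times the count. No paired analysis was possible because each group is 1 library. Depth limits PDK3, the PDK1-like entry and PPARD most, with 66, 119 and 33 reads in all.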

Other observations

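Among named genes of 500 or more reads, the 5 nearest to PDK4 (3.57) in log2 ratio over the 2 libraries were PHKA1 (the alpha subunit of muscle phosphorylase kinase, 3.55, 903 abnormal and 79 normal reads), MBNL1 (a splicing factor of muscle, 3.59, 544 and 46 reads), HSPH1 (a heat-shock protein, 3.68, 1669 and 133 reads), FLNC (filamin C of the Z-disc, 3.33, 57348 and 5809 reads) and CSRP3 (muscle LIM protein, 3.31, 1995 and 206 reads). Likeness here is only the distance of the log2 ratios. CSRP3 was read over 28.0% of its length in the abnormal library.

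The PDK1-like entry had nearly the same number of reads in both libraries but a covered length 20.7 percentage points larger in the abnormal one, 798 against 589 bases. Among the 194 entries with 40 to 80 reads in each library and read numbers within 10% of each other, a set drawn after this was seen, the median difference was 2.34 points, 130 of them had the larger covered share in the abnormal library, and 1, the PDK1-like entry, had a difference of that size. What sets the covered length was not tested.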
